A study of Mus musculus with 6 samples.

Results

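Gene expression was compared between mouse dendritic cells (DC) that had received an adenovirus and then TNFa and DC that had received neither. The comparison rests on 2 of the 6 arrays of the study, the array labelled AdOVA+TNFa and the untreated array, and it covers all 22626 probe sets of the Affymetrix MOE430A array that are not controls. The arrays of cells given AdOVA alone and TNFa alone supplied the sum of the single changes against which the combined change was set. All cells came from bone marrow of a CAR-transgenic mouse, and the labels describe 1 female animal of 13 weeks. CAR is the cell surface receptor that adenovirus of this kind uses for entry, and the sources used here do not give the promoter of the transgene. Progenitors were expanded with growth factors over 7 days, and GM-CSF at 250 U/ml then drove 7 days of differentiation. AdOVA, an adenovirus, was given at 1500 particles per cell for 2 h, the cells were kept for another 18 h, and TNFa was then given at 50 ng/ml for a further 4 h. The TNFa array had the cytokine without virus, the AdOVA array had virus without the cytokine, and the untreated array had neither. AdIkBa-SR, a virus for the super-repressor form of IkBa that holds NF-kB inactive, was given at the same dose without and with TNFa on the remaining arrays.

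DC sit in tissues as sentinels, take up antigen, and mature when they meet microbes or inflammatory cytokines. Adenovirus is sensed inside the cell, where it leads to type I interferon and to the genes that interferon switches on. TNFa acts through a surface receptor that releases the transcription factor NF-kB from its inhibitors, and NF-kB then drives cytokines, survival genes and its own inhibitors.

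Each group has 1 array of 8 ug total RNA. No difference between arrays therefore has a replicate check, and precision is limited by how few arrays there are. No mock transduction is recorded, so effects of the virus and of handling during transduction cannot be told apart. Values are MAS5 signals, with values under a floor of 53.5 set to that floor before log2 was taken. The median signal of the 6 arrays ran from 74.4 to 88.5, and the AdOVA+TNFa array had the highest. The untreated, TNFa and AdOVA arrays were hybridized in 1 round and the AdOVA+TNFa array in another, together with both AdIkBa-SR arrays. Round and combined treatment therefore cannot be told apart among the 4 arrays compared here. The control probe set at the 5' end of 18S rRNA read 2601 on the AdOVA+TNFa array and between 120 and 537 on the other arrays.

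Markers of DC were present, but those of other myeloid cells were too. Of 15 DC marker genes, 13 were above the floor on the untreated array and 13 on the AdOVA+TNFa array, while Flt3 and Dpp4 were under the floor on both. The summed signal of the DC markers was 12836 untreated and 9750 with the combination, and that of 12 macrophage markers was 38438 and 35938. Granulocyte markers had a summed signal of 37292 untreated and 24189 with the combination, and 5 of 14 (Elane, Prtn3, Ctsg, Camp and S100a9) were at least 2-fold lower, where 4.61% of all genes were. With a floor of 100 only 1 of the 14 was. The T cell genes Cd3e, Cd3d, Cd3g and Cd4 were under the floor on all 6 arrays. Of the T cell markers only Zap70 was at least 2-fold higher, of the mast cell and basophil markers only Hdc, and of the B cell, NK cell, erythroid and stromal markers none in either direction. Fewer cells of a type and less RNA per cell cannot be told apart in such bulk samples, and the part of cell types in the results was not tested.

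Similar numbers of probe sets were higher and lower with the combination. In all, 1082 of 22626 probe sets (4.78%) were at least 2-fold higher than untreated and 1050 (4.64%) at least 2-fold lower. At least 4-fold, 116 were higher and 74 lower, and at least 8-fold, 24 were higher and 2 lower. Read as genes, each from its brightest probe set, 580 of 12393 (4.68%) were higher and 571 (4.61%) lower. AdOVA alone gave 411 (3.32%) and 368 (2.97%), and TNFa alone gave 46 (0.371%) and 96 (0.775%). These comparisons share the untreated array, so their values are only set side by side.

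A limma fit of the 4 arrays with additive terms for AdOVA and TNFa called 660 of 14490 probe sets (4.55%) risen and 719 (4.96%) fallen at an adjusted p under 0.05. Among genes, 358 of 8717 (4.11%) had risen and 391 (4.49%) had fallen. The spread in this fit is the departure from additivity, with 1 residual degree of freedom, and not a spread between replicates. It was pooled over probe sets of like signal, with a median of 74.7 prior degrees of freedom. Each SE and adjusted p therefore rests mostly on other probe sets and does not give the precision of a single gene. With all 6 arrays and the round as a block, limma called 0 in either direction, and 1333 probe sets had an unadjusted p under 0.05. In that fit the round term is set by the AdOVA+TNFa array alone, so this array has no part in the change tested. It therefore does not test the combined change with the round taken out, which these arrays cannot do. With arrays scaled to equal medians, 31.9% of the probe sets at least 2-fold apart were higher, against 50.8% on the deposited scale, and the median over the 11501 probe sets above the floor on all 4 arrays moved from 0.08 to -0.11.

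Nos2, the inducible nitric oxide synthase, had the largest rise of any gene above the floor on both arrays. Signals here and below are in the order untreated, TNFa, AdOVA and AdOVA+TNFa, followed where 6 are given by AdIkBa-SR and AdIkBa-SR+TNFa. Nos2 read 151, 233, 640, 3444, 213 and 634, a rise of 22.8-fold with the combination (log2 4.51, limma SE 0.39, limma adjusted p = 4.1e-15). The AdOVA+TNFa array stood above every other array, and the next, AdOVA, was far below it. Cxcl10, the chemokine that attracts activated T cells, reached nearly the same fold by another route. It read 314, 330, 7909 and 7073, so the AdOVA array was as high as the combined one (log2 4.49, SE 0.36, limma adjusted p = 3.5e-16). Oasl1, of the antiviral oligoadenylate synthetase family, read 237, 268, 3971 and 4396, again with virus alone as high as virus with TNFa.

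Ptgs2, the inducible cyclooxygenase that starts prostaglandin synthesis, was the leading gene to which both stimuli contributed. Its signals were 239, 803, 2148, 4210, 380 and 800, with each stimulus alone above untreated and the combination above both. Its single log2 changes were 1.75 with TNFa and 3.17 with AdOVA, and the combined change was 4.14 (SE 0.35, limma adjusted p = 4.1e-15). Ptges, the terminal synthase of prostaglandin E, read 479, 552, 1153 and 1973. It rose by 2.04 on the log2 scale with the combination. Ltc4s, which makes leukotriene C, fell by 1.69, from 445 untreated to 138. Of 9 genes for prostaglandin and leukotriene synthesis, Ptgs2 and Ptges were the 2 at least 2-fold higher and Ltc4s the 1 lower. Of all genes, 4.68% were higher and 4.61% lower.

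The rest of the 12 largest rises were Cmpk2, an interferon-induced kinase of nucleotides in mitochondria, the cytokine Il6, the heat shock gene Hspa1b, the gap junction gene Gja1, the chemokines Cxcl11 and Cxcl1, Tnfaip3 and the guanylate binding protein gene Gbp3. Tnfaip3, which encodes the ubiquitin-editing inhibitor A20 of NF-kB signalling, read 162, 189, 512, 1462, 110 and 224. The combination gave 9.03-fold, well over the AdOVA array. Gja1 read 84.8, 191, 1182 and 899, with the combination under AdOVA alone on its brightest probe set, while another, at 60.6, 67.3, 347 and 440, had it above. From under the floor on the untreated array, Mx2, an antiviral GTPase, reached 565 (at least 10.6-fold higher) and the kinase gene Cdc42bpa reached 290 (at least 5.43-fold). Cdc42bpa was under the floor on the 5 other arrays. Slc20a2, a phosphate transporter, Hivep2, a zinc finger factor, and Slc25a25, a mitochondrial carrier, were at least 4.25-fold higher. Another probe set of Slc20a2, above the floor on all 4 arrays, did not share this, with signals of 161, 119, 120 and 134 (log2 -0.26).

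**Figure D1:**
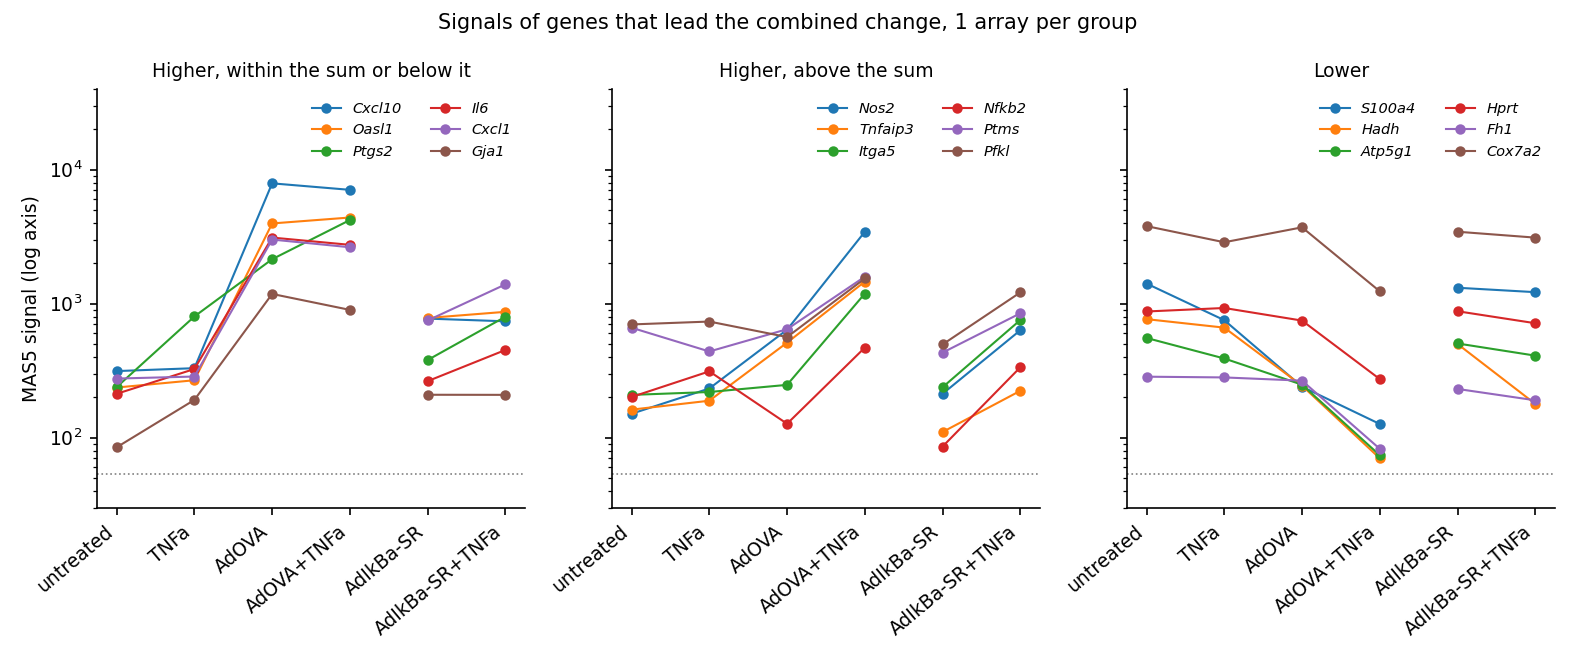
MAS5 signals (log axis) of 18 genes on each of the 6 arrays (x axis), 1 array per group, with lines joining arrays of cells without AdIkBa-SR and, apart, those with it. The dotted line is the floor of 53.5. Cxcl10, Oasl1, Il6 and Cxcl1 are as high with AdOVA alone as with the combination, while Nos2 and Tnfaip3 are highest by far on the AdOVA+TNFa array. Itga5 is highest there too (1190), with AdIkBa-SR+TNFa next (756), and Hadh, Atp5g1 and Fh1 are lowest on the AdOVA+TNFa array.

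The promoters of 6 of these genes are printed because their letters can be set beside the 2 ways of responding. Cxcl10, Il6 and Cxcl1 were no higher with the combination than with AdOVA, and Tnfaip3, Nfkb2 and Itga5 were highest with it. The genes were picked after their values were seen. Each run is the 250 bases before a transcription start in RefSeq on GRCm38.p6, 5' to 3' on the gene's strand. Capitals mark matches on either strand to GGGA and TTCC with 2 bases between them (kB motif), GAAA 2 times with 2 bases between (the core of the interferon-stimulated response element), TGANTCA (AP-1), TGACGTCA (CRE) or the NF-kB consensus, of which the kB motif is a stricter form.
Cxcl10, chr5:92348890-92349139, minus strand: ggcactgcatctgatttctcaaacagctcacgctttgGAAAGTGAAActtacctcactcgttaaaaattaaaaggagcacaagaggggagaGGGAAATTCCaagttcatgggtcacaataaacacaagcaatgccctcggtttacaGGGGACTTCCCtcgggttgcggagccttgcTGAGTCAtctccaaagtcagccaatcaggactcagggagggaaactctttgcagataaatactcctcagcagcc
Il6, chr5:30012864-30013113, plus strand: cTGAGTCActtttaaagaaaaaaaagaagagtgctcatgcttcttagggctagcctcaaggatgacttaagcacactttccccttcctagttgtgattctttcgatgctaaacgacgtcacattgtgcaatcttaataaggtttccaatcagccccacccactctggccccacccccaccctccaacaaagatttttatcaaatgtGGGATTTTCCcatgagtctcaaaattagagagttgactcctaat
Cxcl1, chr5:90890995-90891244, plus strand: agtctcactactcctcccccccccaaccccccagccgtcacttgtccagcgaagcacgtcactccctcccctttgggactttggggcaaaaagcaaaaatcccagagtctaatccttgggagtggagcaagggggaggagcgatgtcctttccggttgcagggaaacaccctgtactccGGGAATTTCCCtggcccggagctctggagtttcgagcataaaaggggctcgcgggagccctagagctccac
Tnfaip3, chr10:19015411-19015660, minus strand: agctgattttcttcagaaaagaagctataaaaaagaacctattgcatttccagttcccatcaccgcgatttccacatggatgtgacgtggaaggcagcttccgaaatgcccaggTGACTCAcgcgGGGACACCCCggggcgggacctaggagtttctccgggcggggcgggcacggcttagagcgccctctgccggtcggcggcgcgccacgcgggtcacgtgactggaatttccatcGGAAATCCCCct
Nfkb2, chr19:46304487-46304736, plus strand: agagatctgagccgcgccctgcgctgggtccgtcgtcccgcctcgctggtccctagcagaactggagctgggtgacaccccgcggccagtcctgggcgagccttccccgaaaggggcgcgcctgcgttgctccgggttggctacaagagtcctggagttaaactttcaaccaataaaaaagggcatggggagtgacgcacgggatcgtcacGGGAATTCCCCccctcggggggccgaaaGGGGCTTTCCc
Itga5, chr15:103366792-103367041, minus strand: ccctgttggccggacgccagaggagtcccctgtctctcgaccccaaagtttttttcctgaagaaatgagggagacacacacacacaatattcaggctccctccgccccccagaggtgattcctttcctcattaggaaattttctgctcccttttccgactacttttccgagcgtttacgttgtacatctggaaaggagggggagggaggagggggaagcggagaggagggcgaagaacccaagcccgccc
The runs of 5 of these 6 genes hold the NF-kB consensus, and that of Itga5 holds none of the motifs. Runs of Oasl1, Ptgs2 and Cmpk2 were read as well and are not printed. That of Oasl1 holds the NF-kB consensus and no other motif, and those of Ptgs2 and Cmpk2 hold none. With genes picked by hand, the share among them cannot be set against that of all genes. Of 27025 genes with a promoter in the table, 8.23% hold the NF-kB consensus in this window, 1.36% the kB motif, 7.82% AP-1, 3.46% the interferon element and 1.77% the CRE. Tnfaip3 and Nfkb2 have further starts in the table, and the most upstream one is shown. Nos2 is named only.

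Interferon-stimulated genes rose together with the combination and did so at the level of virus alone. For this and the lists below, the shares over all genes were 4.68% at least 2-fold higher and 4.61% lower. Of all genes tested by limma, 4.11% were called risen and 4.49% fallen. Of 31 interferon-stimulated genes read, 25 were at least 2-fold higher and 0 lower, and limma called 24 risen. The median log2 change was 1.52, against 0.00 over all genes read, 1.66 with AdOVA alone and 0.00 with TNFa alone. Rsad2, the antiviral enzyme viperin, read 2889, 2834, 19264 and 15999, and Ifit2 read 624, 453, 6032 and 4647. On the AdOVA+TNFa array both were somewhat under the AdOVA array. Stat2, a subunit of the factor that binds interferon response elements, read 264, 345, 687 and 1421, and here the combination was above AdOVA. Isg20, an antiviral exonuclease, read 490, 429, 2775 and 1402 and went the other way. Bst2, which tethers virus particles, was close to its untreated signal with the combination (2519 and 2447) and higher with AdOVA alone (5081).

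Genes of the NF-kB pathway were further from untreated with the combination than with either stimulus. Of 20 genes read, 8 were at least 2-fold higher and 0 lower, 6 were called risen by limma, and the median log2 change was 0.74, against 0.33 with AdOVA and 0.28 with TNFa. Relb, the subunit of the non-canonical dimer, read 90.7, 102, 109, 266, 18.2 and 158. Only the AdOVA+TNFa array of the first 4 was clearly apart. Nfkb2, which encodes the partner of RelB, read 201, 313, 127, 470, 85.9 and 336, higher with TNFa and lower with AdOVA before the combination. Nfkbie, the gene of an IkB protein, rose by 1.48 on the log2 scale, and Nfkbiz, of the same family, read 286, 360, 617 and 807 and was called risen too. Nfkbia, which encodes IkBa itself, read 10622, 10697, 16336 and 9729 on its brightest probe set, so the combined array was near untreated.

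Of 23 cytokine genes, 10 were at least 2-fold higher with the combination, 0 were lower and limma called 7 risen. The median log2 change was 0.94, and with a floor of 100 it was 0.63 and 6 of the 23 were at least 2-fold higher. Il6 read 213, 326, 3114 and 2749. Il1a, the alarmin cytokine, read 1275, 3007, 5839 and 6622, with TNFa and AdOVA each over 2-fold above untreated and little further gain in the combination. Tnf itself read 139, 318, 598 and 583 and had the same shape. Il12b, the p40 chain that IL-12 and IL-23 share, read 186, 151, 303 and 562, with the combination above AdOVA. Ifnb1, an early type I interferon, read 62.4, 46.6, 260 and 153.

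Among 23 chemokine genes, 5 were at least 2-fold higher and 3 lower, where 4.68% and 4.61% of all genes were. The numbers called risen and fallen by limma were the same. Ccl4 read 525, 594, 3126 and 1935, and Cxcl2 read 2965, 3414, 9232 and 7816. In both the combination was under AdOVA alone. Ccl17, a chemokine for T cells made by DC, fell by 2.02 on the log2 scale, from 1683 to 415, near the 546 with AdOVA. The platelet chemokines Ppbp and Pf4 fell as well, by 2.62 and 1.52. Ccl2, an attractant of monocytes, read 5977, 5162, 9689 and 5536 and was near untreated in the combination.

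Of 23 DC maturation genes, 9 were at least 2-fold higher and 1 lower (Cst7, an inhibitor of proteases), and limma called 8 risen. Cd200, an inhibitory ligand, read 232, 346, 652 and 833. Icam1, which binds LFA-1 on T cells, read 617, 1010, 815 and 1669, higher with each stimulus and highest with the combination. Ccr7, the receptor that guides DC to lymph nodes, read 195, 177, 402 and 516. Cd40 read 79.3, 97.0, 143 and 185 (log2 1.22), past 2-fold and not called by limma (adjusted p = 0.094). A second Cd40 probe set above the floor on all 4 arrays was not past 2-fold, at 101, 65.3, 111 and 141 (log2 0.48). Cd86 read 564, 758, 1155 and 711, and Cd83 read 350, 388, 331 and 270, so neither was 2-fold from untreated with the combination. With AdOVA alone Cd86 was over 2-fold above untreated.

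For MHC class I, the peptide transporter genes Tap1 (438, 431, 873 and 1292) and Tap2 (346, 356, 531 and 903) and the editor gene Tapbpl rose, 3 of 15 genes in all. For MHC class II, 1 of 12 genes changed, Ifi30, the lysosomal thiol reductase, which fell from 508 to 190. The class II chain gene H2-Aa read 1173, 982, 1169 and 704, and Cd74, the invariant chain, 2558, 1993, 1515 and 2331. Of 20 uptake receptor genes, 0 were at least 2-fold higher and 1 lower, the scavenger receptor Cd36, which read 711, 969, 386 and 314. The median log2 change of that list was -0.43, and with equal medians 3 of the 20 were at least 2-fold lower. Of all genes 4.68% were higher and 4.61% lower, and the class II and uptake counts on the deposited scale were near that, at 0 to 1 gene each.

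Stress, death and early response genes rose in part. Of 24 stress and chaperone genes, 5 were at least 2-fold higher, among them Hspa1a (83.4, 105, 443 and 421), Hmox1, the heme-degrading enzyme (2364, 2102, 5346 and 5965), and Cdkn1a, the cell cycle inhibitor p21. Hspe1, the mitochondrial co-chaperone, fell by 2.25 on the log2 scale, reading 531, 253, 368 and 111. Of 18 survival and cell death genes, 4 were at least 2-fold higher (Casp4, Casp8, Cflar and Tnfrsf1b), and with equal medians 0 were. Of 20 immediate-early genes and phosphatases, 6 were at least 2-fold higher and 1 lower. Jun read 294, 278, 469 and 1013 and Junb read 275, 320, 681 and 1073, both highest with the combination. Myc read 126, 127, 61.7 and 42.4 and was called fallen.

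Of the 28 lists, genes of the cytosolic ribosome and of the respiratory chain had the lowest median changes. Of 30 ribosomal protein genes read, 25 were at least 2-fold lower with the combination, against 4.61% of all genes, 0 were higher, and limma called 19 fallen. With AdOVA alone 2 were at least 2-fold lower and with TNFa alone also 2, since the single median log2 changes were -0.40 and -0.50 and the combined one -1.22. Rps19 read 3620, 1985, 2784, 996, 2659 and 2613, and Rps18 read 4393, 2102, 2566, 1211, 3342 and 3546. In both, TNFa and AdOVA each lay under untreated, the combination lay lowest, and the AdIkBa-SR arrays lay between it and untreated. Rpl6 read 4334, 3844, 2906 and 1026. The summed signal of the list was 107288 untreated, 76375 with TNFa, 83929 with AdOVA and 44363 with the combination, and it was 95021 and 95315 on the AdIkBa-SR arrays.

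Of 56 genes of the respiratory chain and ATP synthase, 34 were at least 2-fold lower with the combination and 0 higher, and limma called 31 fallen. The median log2 change was -1.18, from -0.46 with AdOVA and -0.51 with TNFa, and 53 of 56 were below 0. Cox5a, a subunit of cytochrome oxidase, read 3687, 2132, 1927 and 884. Atp5g1, which encodes the c ring subunit of ATP synthase, read 555, 390, 249, 73.9, 505 and 410 and fell 7.51-fold. Uqcr11, of complex III, went from 425 to under the floor, at least 7.95-fold lower. Exceptions were Atp5a1 (1515, 1557, 1565 and 1785), Cox5b (1797, 1205, 1365 and 2021) and the succinate dehydrogenase gene Sdha (738, 864, 499 and 736). Bright probe sets were lower more often than dim ones over the whole array, at 14.5% of the brightest quartile of those above the floor on all 4 arrays and 1.84% of the dimmest, and both lists are bright. The part of signal level in these falls was not tested.

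**Figure D2:**
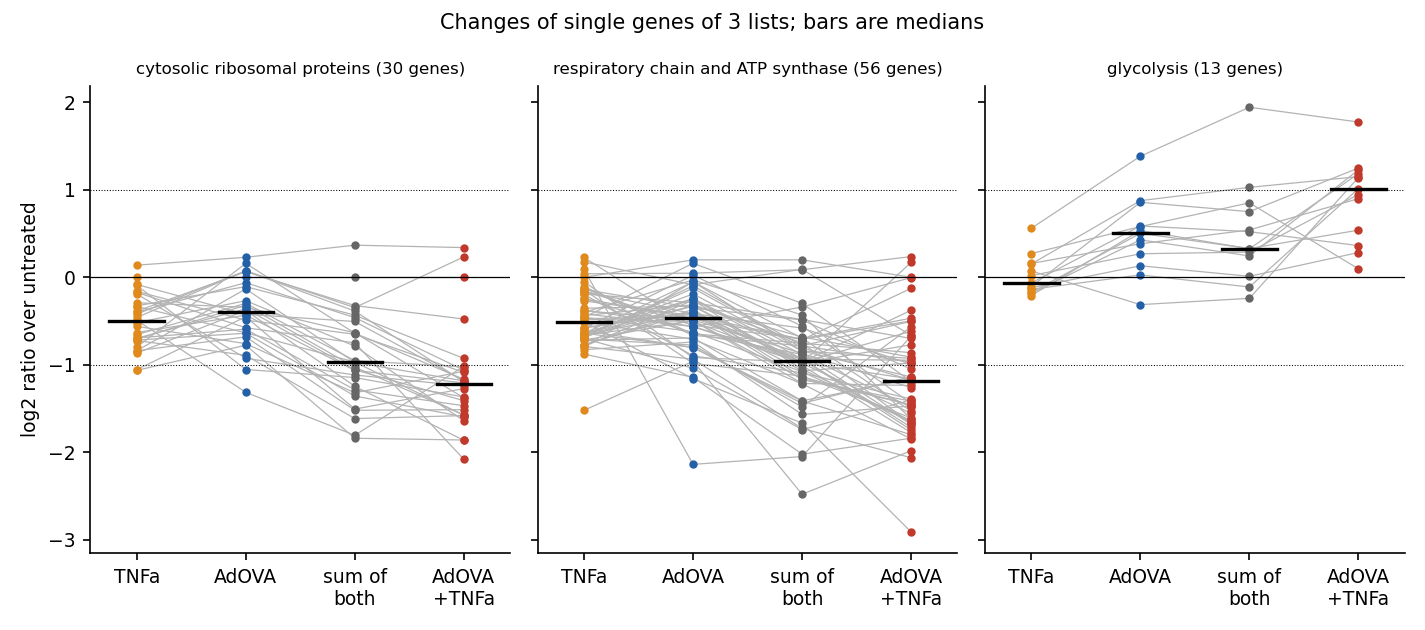
Log2 ratio over untreated (y axis) of each gene in 3 lists, with TNFa, with AdOVA, as the sum of both and with AdOVA+TNFa. Dots are genes, grey lines join a gene, black bars are medians and dotted lines mark 2-fold. Ribosomal and respiratory chain genes lie lowest with the combination (medians -1.22 and -1.18) and glycolysis genes highest (1.01).

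Glycolysis genes went the other way. Of 13 genes, 7 were at least 2-fold higher with the combination, 0 were lower and limma called 6 risen, with a median log2 change of 1.01 against 0.50 for AdOVA and -0.06 for TNFa. With equal medians 3 of the 13 were at least 2-fold higher. Slc2a1, the glucose transporter, read 2541, 2361, 4600 and 6033, and Hk1, the first enzyme of the path, read 806, 697, 1167 and 1828. Slc16a3, which exports lactate, read 674, 593, 906, 1577, 635 and 1495. Pgk1 (11158, 13463, 16668 and 11928) and Ldha (7594, 7260, 11396 and 9754) were highest with AdOVA alone.

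Enzymes of the citrate cycle and of fatty acid oxidation were lower in part. Of 28 genes, 7 were at least 2-fold lower and 0 higher, and limma called 5 fallen, with AdOVA alone at 8. Hadh, a dehydrogenase of fatty acid oxidation, read 767, 663, 244, 70.2, 500 and 179 on its brightest probe set and fell 10.9-fold, while the other Hadh probe set above the floor on all 4 arrays had a log2 change of -1.09. Idh1, the cytosolic isocitrate dehydrogenase, read 1543, 1470, 436 and 294, mainly the AdOVA change. S100a4, which encodes an S100 protein that binds calcium and myosin, had the largest fall among genes above the floor on both arrays, 11.2-fold. It read 1414, 753, 240 and 127. The other leading falls included Nme2 and Nme1, nucleoside diphosphate kinases, Mrpl42, of the mitochondrial ribosome, the myeloid receptor gene Cd93 and Atpif1, the inhibitor of ATP synthase. The second probe set of Cd93, above the floor on all 4 arrays, went only from 102 untreated to 86.2 (log2 -0.24). Of 28 cell cycle genes, 5 were at least 2-fold lower (Top2a, Ccna2, Cdk1, Rrm2 and Cks1b) and 1 higher (Ccne1), and 8 and 3 were lower with floors of 30 and 100. Of 15 cholesterol genes 1 was at least 2-fold lower and 0 were higher, near the 4.61% and 4.68% of all genes. With equal medians 5 of these were lower, and also with quantile normalization.

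Reference genes did not all hold still. Actb read 12575, 14874, 13538 and 11635 and B2m 14648, 14456, 18342 and 14530. Hprt read 875, 929, 748, 274, 878 and 715 and fell by 1.68 on the log2 scale, with the AdOVA+TNFa array far under the other 5. The transferrin receptor gene Tfrc was the other of 9 reference genes that fell.

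**Figure D3:**
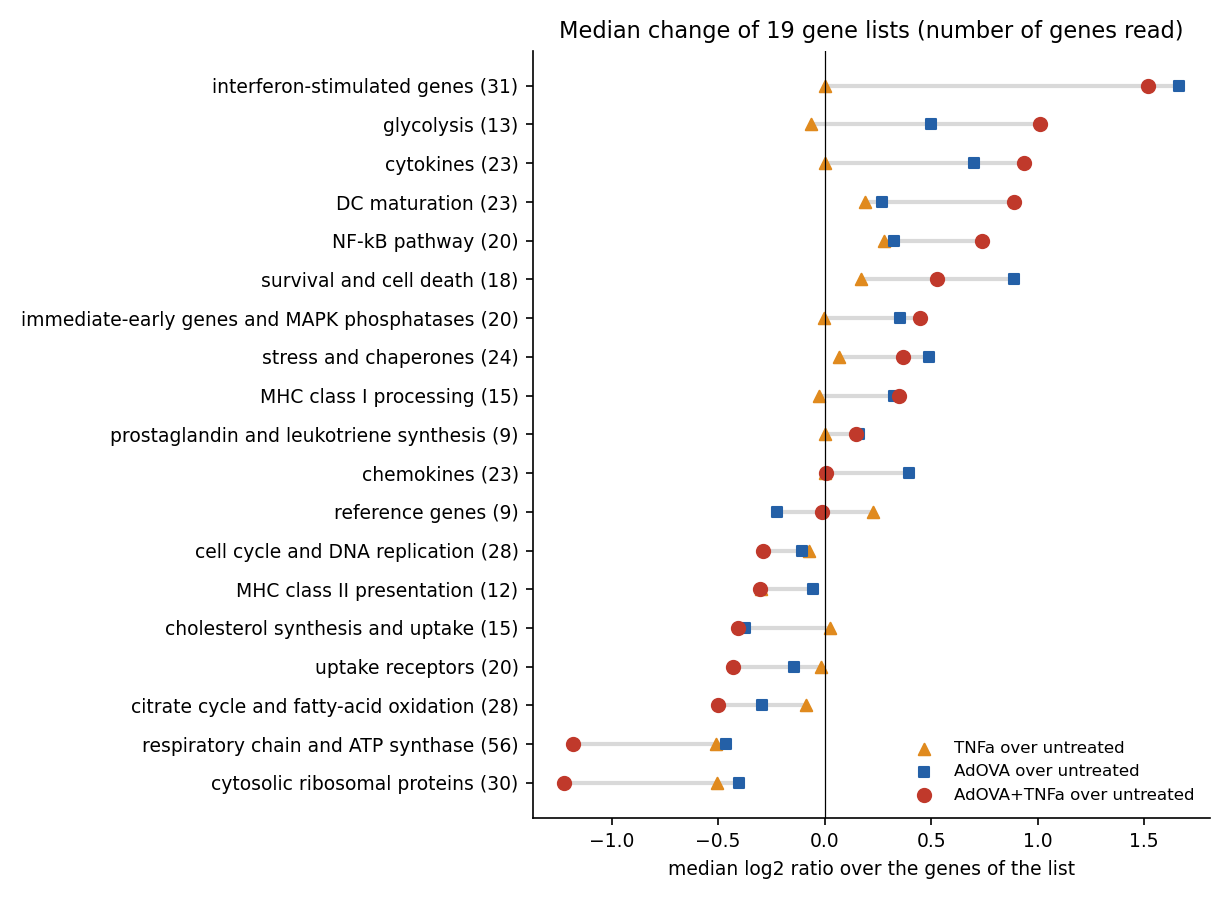
Median log2 ratio over untreated (x axis) of the genes in 19 lists, with the number of genes read in brackets, for TNFa (triangles), AdOVA (squares) and AdOVA+TNFa (circles), each from 1 array per group. Interferon-stimulated genes and glycolysis are highest with the combination (1.52 and 1.01) and respiratory chain and ribosomal genes lowest (-1.18 and -1.22), further out than with either stimulus alone except for the interferon-stimulated genes (1.66 with AdOVA).

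The combined change was then set against the sum of the single log2 changes. The difference, log2 of AdOVA+TNFa plus untreated minus AdOVA minus TNFa, is called the departure here, and 1 or more is above additivity and -1 or less below. It was read over the 11501 probe sets above the floor on all 4 arrays, where no term is a bound. Of these, 10493 (91.2%) lay within 2-fold of the sum, 623 (5.42%) above it and 385 (3.35%) below. The departure had a median of 0.00 and an SD of 0.59 across probe sets, and 25 probe sets reached 2 above and 9 reached 2 below. With 1 array per group there is no degree of freedom to test it. With equal medians 444 lay above and 568 below, so that 43.9% of departures were above against 61.8% on the deposited scale.

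Most of the strongly changed probe sets were near the sum. Of 801 that were at least 2-fold higher with the combination and above the floor on all 4 arrays, 661 were within 2-fold of the sum, 122 above and 18 below. Of 881 at least 2-fold lower, 788 were within it, 87 below and 6 above. The AdOVA+TNFa and untreated arrays enter both measures, so these splits are a description. Departures also arose where the combination was near untreated. Of the 623 above additivity, 264 had a sum at least 2-fold lower, and in 257 of those the combined change was within 2-fold of untreated. Of the 385 below, 185 had a sum at least 2-fold higher, 167 of them with the combined change within 2-fold.

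**Figure D4:**
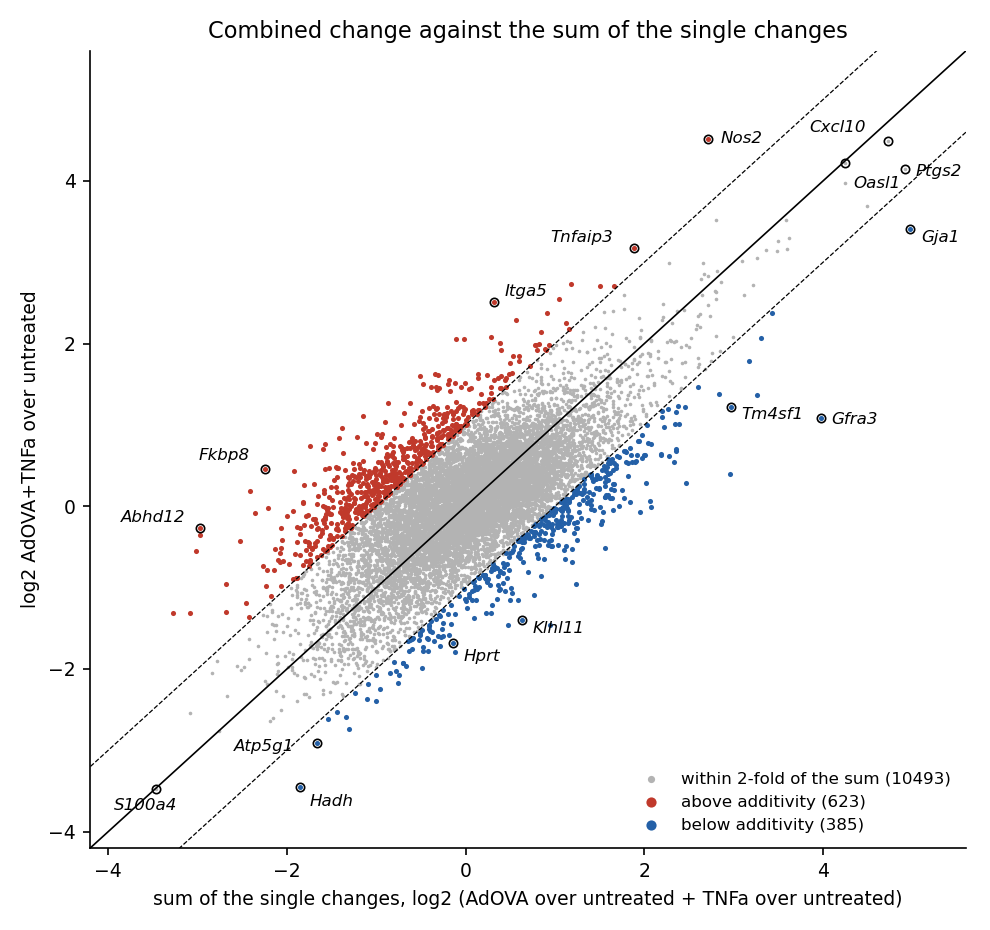
Log2 ratio of AdOVA+TNFa over untreated (y axis) against the sum of the log2 ratios of AdOVA and of TNFa over untreated (x axis) for the 11501 probe sets above the floor on all 4 arrays, 1 array per group. The solid line is the sum, dashed lines are 2-fold from it, red points are above (623) and blue points below (385), and 16 genes are circled. Nos2, Tnfaip3 and Itga5 lie above the sum, Gja1, Gfra3 and Hprt below, and Cxcl10, Oasl1 and S100a4 near the line.

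Itga5, the alpha chain of the fibronectin receptor, departed most among genes at least 2-fold higher with the combination. It read 209, 219, 248, 1190, 238 and 756. On this probe set neither stimulus alone moved it by much, the combination was highest, and the AdIkBa-SR+TNFa array came next. The combined log2 change was 2.51 and the departure 2.19. The other probe set of the gene read 116, 149, 186 and 680, so each stimulus alone was above untreated there, by less than 2-fold. Its combined change was 2.55 and its departure 1.51. The next were Prr12, Mc3r, Ccnt1, Ptms, Selenon, Adamtsl4, Nos2, Gna11 and Atf7ip, with departures from 2.11 down to 1.64. Ccnt1, the cyclin of the elongation factor P-TEFb, read 185, 175, 158, 566, 116 and 349. Ptms, the parathymosin gene, read 662, 440, 645, 1591, 431 and 848. Nos2 was the only one of the 10 whose combined fold passed 6, and its departure was 1.80. Mc3r read 81.1, 62.8, 75.0 and 230 and Gna11 88.6, 61.5, 91.1 and 199, signals near the floor, and the second probe set of Gna11 departed by -0.15.

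Among genes at least 2-fold lower with the combination, departures below additivity led with Klhl11, Apex1, Gtf3c4, Fh1, Ormdl1, Hadh, Mrpl39, Pigk, Hprt and Immp1l, from -2.03 to -1.50. Fh1, the fumarase gene, read 285, 282, 267, 82.6, 231 and 190. Apex1, a DNA repair endonuclease, read 334, 424, 366, 122, 149 and 197, but its other probe sets departed by 0.35 and 0.52. A second probe set above the floor on all 4 arrays departed by only 0.06 for Mrpl39, -0.14 for Hadh and -0.52 for Pigk. Hprt, which salvages purines, departed by -1.54. In Fh1, Apex1 and Hprt the AdOVA+TNFa array was the lowest of all 6.

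A further group fell short of the sum because each stimulus alone gave a higher signal and the combination gave little more or less. Gfra3, a receptor of the GDNF family, read 76.6, 280, 331, 162, 124 and 72.3, with a summed change of 3.98, a combined change of 1.08 and the lowest departure of any gene, -2.90. Tm4sf1, a membrane protein of the tetraspanin-like family, read 292, 441, 1513 and 682 and departed by -1.74. Cbr3, Ercc6l2, Hibch, Exosc8, Gsap, Zfp518b, Casq1 and Prmt3 had departures between these 2 genes or close to them, -2.18 to -1.72, with combined changes from -0.95 to 0.55. No signal of these 8 genes on the 4 arrays exceeded 294, the value of Gsap with TNFa.

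The opposite group was lower with each stimulus and within 2-fold of untreated with the combination. Fkbp8, an anti-apoptotic immunophilin of mitochondria, read 218, 175, 57.0, 300, 198 and 651. Abhd12, a lysophospholipase, read 460, 211, 128, 382, 426 and 567. Sirt2, a deacetylase, read 276, 224, 89.6, 371, 302 and 505. The AdOVA array was lowest for all 3, and AdIkBa-SR+TNFa was highest. Brd8, Sp110, Tle5, Myo18a, Chpf2, Tmem37 and Lnx2 complete the 10 genes with the largest departures of this kind, 2.62 to 2.26. Of 4 probe sets for Brd8 another departed by 1.80 and the rest by -0.14 and -0.50, and the second probe set of Sp110 above the floor departed by -0.16.

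Departures were seldom shared by all probe sets of a gene. Of 2296 genes with 2 or more probe sets above the floor on all 4 arrays, 281 had at least 1 probe set above additivity and in 18 of these (6.41%) all were. For departures below, 178 genes had at least 1 and 4 (2.25%) had all. Among the 18 with all probe sets above were Abhd12, Ptms, Itga5, Arpc4, Pfkl, Nfkb2, Shc1, Selenow, Cd99, Ncf1, Stxbp2 and Pi4k2a. With additivity of signals in place of log2 values, Nfkb2 (0.98) and Ncf1 (0.95) were under 1. Equal medians left Ncf1 (0.96) and Stxbp2 (0.94) under 1. Arpc4, a subunit of the actin-nucleating Arp2/3 complex, read 800, 841, 502, 1426, 1022 and 2123, with departures of 1.43 and 2.34. Pfkl, a phosphofructokinase of glycolysis, read 700, 736, 564, 1542, 497 and 1215, with departures of 1.38 and 1.43. Ncf1, a subunit of the phagocyte NADPH oxidase, read 837, 919, 409, 948, 693 and 1345. In Arpc4 and Ncf1 the AdOVA array was the low one of the first 4. The 4 genes below with all probe sets were Cox7a2, Clec4e, Kpna6 and Ms4a4c. With additivity of signals, Clec4e (-0.81) and Ms4a4c (-0.89) no longer reached -1. Cox7a2, a cytochrome oxidase subunit, read 3793, 2874, 3714, 1237, 3443 and 3112. Clec4e, the receptor Mincle, read 5712, 8414, 14714 and 9924.

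Departures beyond 2-fold were also read by list. Over all 7099 genes above the floor on 4 arrays, 366 (5.16%) were above additivity and 221 (3.11%) below. Of 20 NF-kB pathway genes, 4 were above (Bcl3 1.30, Tnfaip3 1.29, Nfkb2 1.25 and Relb 1.11) and 1 below (Birc3 -1.01). Of 18 survival and cell death genes 0 were above and 4 below, namely Casp1, Casp4, Fas and Pmaip1, from -1.10 to -1.21. Casp1, which activates IL-1b, read 626, 835, 1435 and 830, and Fas, a death receptor, 122, 233, 221 and 193. Cytokines had 2 above (Il12b 1.19 and Tgfb1 1.01) and 2 below (Tnf -1.23 and Il1a -1.06) of 14. Immediate-early genes had Fosl2 (1.59) and Jun (1.19) above and Maff (-1.15) below. Fosl2, a subunit of AP-1, read 171, 147, 177, 456, 174 and 333.

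The interferon-stimulated genes had 2 of 30 above (Dhx58 1.07 and Irf7 1.01) and 0 below, with a median departure of 0.01. Ribosomal genes had 0 above and 1 below (Rpl6 -1.33) of 29, with a median of -0.22. Respiratory chain genes had 2 above (Atp5b 1.38 and Cox5b 1.14) and 2 below (Cox7a2 and Atp5g1) of 55, with a median of -0.25. The brightest quartile of all probe sets had a median departure of -0.14. Glycolysis had 2 of 13 above (Pfkl 1.38 and Aldoa 1.12) and 0 below, with a median of 0.36. Chemokines had Ccl22 above (1.08) and Ccl7 (-1.27) and Ppbp (-1.08) below of 16, with a median of -0.38.

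The AdIkBa-SR arrays took no part in the departure and gave a separate reading of TNFa in transduced cells. The log2 ratio of AdIkBa-SR+TNFa over AdIkBa-SR had a median of -0.02 over the 11501 probe sets, and 47.4% were above 0. For the 623 above additivity the median was 0.44 (quartiles 0.12 and 0.77) and 82.5% were above 0. In this group 86 were at least 2-fold higher and 2 lower, where 2% and 0.835% of all 11501 were. For the 385 below additivity the median was -0.30 and 23.9% were above 0, with 2 at least 2-fold higher and 13 lower. Among the 122 above additivity and at least 2-fold higher with the combination the median was 0.76, and 41 were at least 2-fold higher and 0 lower. Among the 87 below and at least 2-fold lower it was -0.41. Aldoa, an enzyme of glycolysis, shows the pattern at a high signal, with 5409, 4917, 5510, 10910, 4984 and 10498. Tgfb1, the immunoregulatory cytokine, read 798, 932, 618, 1449, 874 and 2458. These arrays share the hybridization round of the AdOVA+TNFa array. The AdIkBa-SR array was run under another fluidics protocol, FlexGE-WS2, where the others had EukGE-WS2. Its header gives 0 cycles in both wash fields and a first stain of 420 s, where the others give 10 and 4 cycles and 600 s. The part of round, wash and stain in this pattern was not tested.

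**Figure D5:**
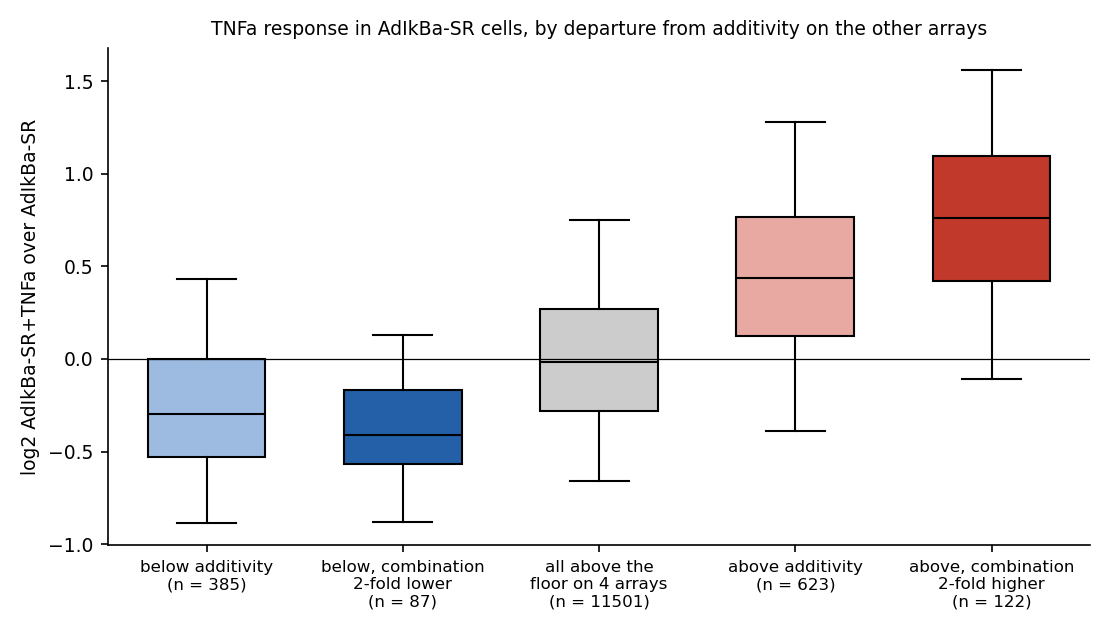
Log2 ratio of AdIkBa-SR+TNFa over AdIkBa-SR (y axis), from 2 arrays that do not enter the departure, for probe sets grouped by their departure on the other 4 arrays. Boxes are quartiles, the line is the median and whiskers reach the 5th and 95th percentiles of probe sets. The medians rise from -0.30 below additivity through -0.02 over all to 0.44 above, and 0.76 where the combination was also at least 2-fold higher.

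Promoter motifs were counted in the 250 bases before the starts of the same genes. Of 61 genes above additivity and at least 2-fold higher with the combination, 50 had a promoter in the table and 13 (26%) held the NF-kB consensus. The share was 10.3% (4 of 39) for genes below additivity and at least 2-fold lower, and 10.7% of 5814 genes above the floor on all 4 arrays. The stricter kB motif was in 1 of the 50. Among 45 genes at least 4-fold higher with the combination, 13 (28.9%) held the consensus, 5 (11.1%) the kB motif, 10 (22.2%) the interferon element and 10 AP-1. The same shares over 5814 genes were 10.7%, 1.62%, 3.51% and 6.23%. A match is a stretch of letters and shows no binding, and no test was made.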

How the data were processed

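The 6 arrays, 1 per group, were grouped by their titles, and all 22626 probe sets that are not controls were used. The authors deposited signal intensity values; the submitters' processing notes name MAS5, with no version in the sources used here. Intensity was floored at 53.5, the 40th percentile of all values, and log2 was taken. Each of 12393 genes is represented by the brightest of its probe sets that carry 1 symbol; 691 probe sets with several symbols and 1555 with none were not named. The departure was read where all 4 arrays were above the floor.

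The combination was tested with limma 3.58.1 (R 4.3.3), with additive terms for AdOVA and TNFa over the 4 arrays, on 14490 probe sets above the floor on at least 2, with Benjamini-Hochberg adjustment. On simulated data with 200 changed probe sets among 14490, this test found 0 changed 2-fold (0 false calls), 193 changed 4-fold (20 false calls) and 200 changed 8-fold (17 false calls). These numbers describe the simulated data only. Rates for the real arrays, where round and combined treatment cannot be told apart, were not tested. Python 3.11.15 with numpy 2.4.6, pandas 2.3.3, scipy 1.17.1 and matplotlib 3.10.9 did the rest.

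Named genes were the 12 largest changes each way, up to 5 more each way from or to under the floor, the 10 largest departures of each kind, genes whose probe sets all departed one way, and genes of 28 lists. RIKEN and predicted symbols were passed over. The members and lists were chosen with earlier results of these data known. Alternatives were other floors, thresholds, scalings, filters, ways to read a gene and designs of the limma fit.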

Additional observations from a re-analysis of the deposited data

Results flagged for a closer look

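Control probe sets for 18S rRNA, which enter no comparison, were highest on the AdOVA+TNFa array. The signal there was 2601 at the 5' end, 302.6 in the middle and 1061 at the 3' end, against at most 537, 128 and 414 on the other 5 arrays. The part of this in the changes on that array was not tested.

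In 4 genes of 7099, TNFa went with a change of at least 2-fold one way without virus and at least 2-fold the other way with AdOVA. Each such change rests on 1 array per group, so the difference was not tested. Abhd12, a lysophospholipase, was lower with TNFa without virus (log2 -1.12) and higher with AdOVA (1.58), a departure of 2.707. Sp110, a nuclear body protein, had -1.09 and 1.51, a departure of 2.605, which its second probe set above the floor did not share. Myo18a, an unconventional myosin, had -1.34 and 1.13, a departure of 2.474. Gfra3 went the other way, with 1.87 and -1.03, a departure of -2.898.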

How the results depend on the processing

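No paired analysis was possible because each group has 1 array. The 34 combined changes kept their direction with the mean of a gene's probe sets, equal medians and quantile normalization, and equal medians kept all 34 past 2-fold. The 53 departures kept theirs with the mean, equal medians and additivity of signals. Averaging all probe sets of a gene left 33 of 34 combined changes and 41 of 53 departures past 2-fold, and additivity of signals in place of log2 values left 49 departures. The number at least 2-fold higher was 1626 with a floor of 30, 677 with a floor of 100 and 687 with equal medians. Departures above and below were 993 and 613 with a floor of 30, and 347 and 219 with a floor of 100. At 1.5-fold, 3124 were higher and 2305 lower, and at 3-fold 269 and 278. Departures of 3-fold numbered 99 above and 39 below, and with all probe sets kept after the floor 947 were above. limma called 329 risen with equal medians, and 314 risen and 425 fallen after quantile normalization, by which 44.0% of 2-fold changes were higher and 55.2% of departures above. On all 6 arrays limma called 208 risen and 134 fallen. It called 0 risen and 0 fallen with the round as a block (1333 at an unadjusted p under 0.05), and 0 and 0 without the filter on low signals (1956). With all 6 arrays the change tested is no longer exactly AdOVA+TNFa minus untreated. With the round as a block the AdOVA+TNFa array has no part in it. The fit without the filter was of the 4 arrays. The cause of these differences was not tested. The median departure of the interferon-stimulated genes and of the cytokines, 0.01 each, was -0.11 with equal medians. Signals near the floor and single arrays limit every value.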
